A study of Mus musculus with 6 samples.

Results

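The genes described here are 10 genes of liver sinusoidal endothelial cells: Stab1, Stab2, Lyve1, Clec4g, Gpr182, Dnase1l3, Oit3, Fcgr2b, Wnt2 and Rspo3. They were taken by symbol from a mouse count table of 56884 genes, whose Ensembl identifiers were named from a GENCODE mouse annotation. All 10 were found once, and all 10 were among the 18018 genes tested, which needed a total of 10 counts over 6 libraries. The rule used no measured value, but earlier results of these data were known when the genes were chosen. RNA came from livers of male athymic BALB/c (nu/nu) mice, which lack mature T cells and which were aged 6 weeks when the human HCC line QGY-7703 was implanted into the liver. The 3 siControl libraries (genotype label WT, control AAV) and the 3 siAATF libraries (genotype label KD, siAATF AAV) differed in the siRNA that an AAV8 vector carried. Virus was given 1 week after the tumor cells, and tissue was taken 3 weeks later. The TBG promoter of the vector is active in hepatocytes. Each library counted human reads (the tumor) and mouse reads (the tumor microenvironment, TME) separately.

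Sinusoidal endothelial cells line the liver's capillaries. They have open pores and no tight basement membrane, and they clear waste from blood by endocytosis through scavenger, lectin and Fc receptors. In the pericentral part of the lobule they also secrete Wnt ligands and R-spondin 3, which keep β-catenin target genes active in nearby hepatocytes. In liver tumors and in fibrosis the lining can take on features of ordinary continuous capillaries, a change known as capillarization.

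The groups differed strongly in the origin of their counts. Mouse genes held 213022 to 913584 counts in siControl, 0.778% to 1.93% of all gene counts, and 11835898 to 42563694 counts in siAATF, 97.9% to 99.0%. A gene without counts could therefore still reach a CPM (read counts scaled to 1e6 mouse counts) of 3.28 to 14.1 in siControl, but only 0.0705 to 0.253 in siAATF, counting error alone. Mitochondrial genes took 4.04% to 10.5% of mouse counts in siControl and 20.8% to 56.1% in siAATF. Aatf, the siRNA target, had 12, 1 and 23 counts in siControl replicates 1 to 3 against 384, 109 and 340 in siAATF replicates 1 to 3. Its log2 fold change was 0.93 (standard error 0.47, adjusted p = 0.152, edgeR) after TMM normalization. In CPM of mouse counts without TMM, Aatf was 17.1, 4.69 and 25.2 in siControl against 9.02, 9.21 and 9.72 in siAATF, with siControl replicate 2 below and the other siControl libraries above every siAATF library. The direction of Aatf thus depended on the scaling, and higher or lower is used here by library label. The labels do not say which part of the liver or tumor each piece of tissue held, so a difference in the tissue taken and an effect of the siRNA cannot be told apart in any fold change given here. Hepatocyte RNA also differed, with Alb (albumin) at 1553 ± 795 (SD, n = 3) normalized CPM in siControl, beside 29203 ± 15226 (SD, n = 3) in siAATF. The labels do not say that replicates were separate animals, so p-values measure the spread between these samples.

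Unless another scale is named, levels are CPM of mouse counts after TMM normalization, which rescales libraries to their typical genes, and differences are log2 fold changes of siAATF over siControl fitted with edgeR's quasi-likelihood test, with p-values adjusted by Benjamini-Hochberg over all mouse genes tested. On this scale the 10 genes split. Stab1, Lyve1 and Fcgr2b fell and Clec4g, Dnase1l3 and Rspo3 rose, with adjusted p under 0.05. Stab2, Gpr182, Oit3 and Wnt2 did not pass. Over all mouse genes, 17.6% were called higher and 14.4% lower. By the study's own criteria (unadjusted p under 0.05 with a log2 fold change past 2 in either direction) 2 of the 10 were higher and 3 lower, beside 13.6% and 13.1% of all genes. The groups did not overlap for 8 of the 10, as for 52.7% of all genes. In bulk RNA, fewer cells of a type and less RNA per cell cannot be told apart.

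**Figure D1:**
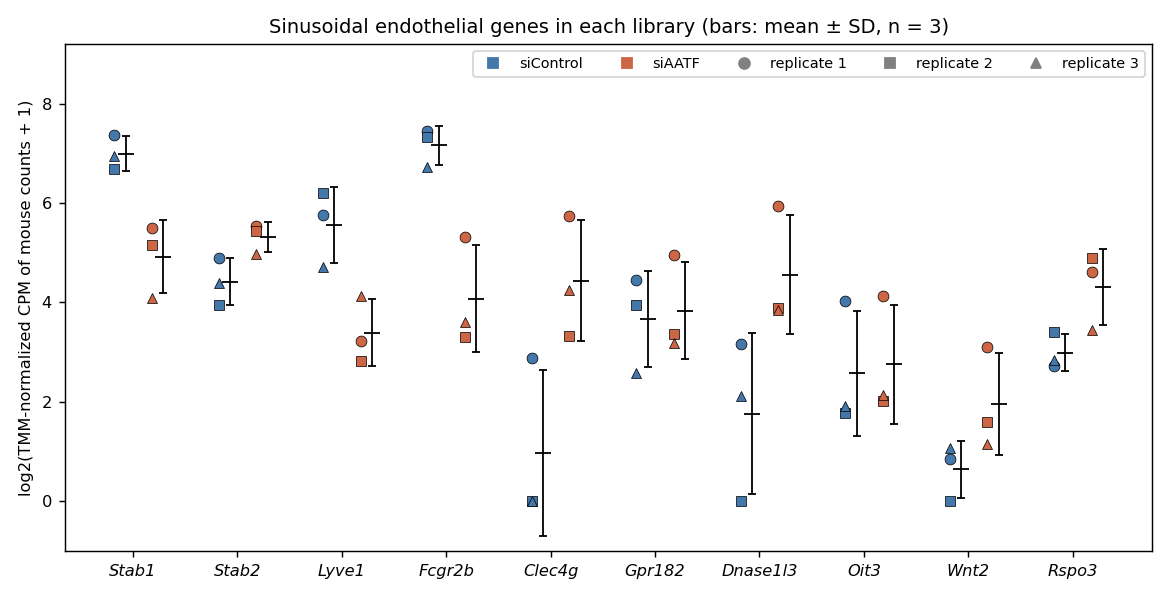
Level of each sinusoidal gene in each library, as log2 of TMM-normalized CPM of mouse counts plus 1 (vertical axis), with siControl in blue, siAATF in red, a symbol for each replicate and bars for mean ± SD of 3 libraries. Stab1, Lyve1 and Fcgr2b are high in siControl and lower in every siAATF library, whereas Clec4g lies at 0 counts in siControl replicates 2 and 3.

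Stab1 and Stab2 encode the stabilins, large paired scavenger receptors that take up modified proteins and, for stabilin-2, hyaluronan. Stab1 (ENSMUSG00000042286, GRCm39 chromosome 14, 30860970 to 30890598, minus strand) had 205, 42 and 218 counts in siControl replicates 1 to 3 against 1279, 173 and 289 in siAATF replicates 1 to 3. Its CPM was 164, 101 and 121 in siControl against 44.1, 34.9 and 16.0 in siAATF. Every siControl library was above every siAATF library. Its mean was 129 ± 32.2 (SD, n = 3) in siControl against 31.7 ± 14.3 (SD, n = 3), and the log2 fold change was -2.04 (standard error 0.45, adjusted p = 0.00422, edgeR).

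Stab2 (ENSMUSG00000035459, chromosome 10, 86677062 to 86843889, minus strand) had 36, 6 and 36 counts in siControl against 1326, 210 and 547 in siAATF. Its CPM was 28.9, 14.5 and 20.1 in siControl and 45.7, 42.3 and 30.3 in siAATF. Here the siAATF libraries were all above the siControl libraries, although siAATF replicate 3 was close to siControl replicate 1. The mean went from 21.1 ± 7.26 (SD, n = 3) to 39.4 ± 8.09 (SD, n = 3), and the log2 fold change of 0.85 did not pass (standard error 0.38, adjusted p = 0.106, edgeR).

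The ratio of the paired genes within a library needs no scaling between libraries. Stab2 counts per Stab1 count were 0.176, 0.143 and 0.165 in siControl against 1.04, 1.21 and 1.89 in siAATF. The siControl ratios lay close together and far from the siAATF ratios. The mean ratio was 0.161 ± 0.0167 (SD, n = 3) against 1.38 ± 0.452 (SD, n = 3), a log2 difference of 3.06 (p = 0.1 in a two-sided exact permutation test, for which no smaller p is possible with 3 libraries against 3).

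The sequences before the RefSeq start sites of the stabilins, whose ratio differed between the groups, and of Clec4g, which had the largest rise of the 10, are shown for comparison. RefSeq's promoter table (GRCm38.p6) held windows of 300 bases for 5 of the 10 genes, Stab1, Stab2, Clec4g, Fcgr2b and Wnt2. Each was found once in GRCm39 by exact match, and the 250 bases before the RefSeq start are printed 5′ to 3′ on the gene's strand, which is minus for all of them. Capitals mark a match on either strand to a searched word, and a match that runs past the start is shown up to it. The words were AGGAAG, a core bound by ETS factors, and CACCC, a core bound by KLF factors. The core promoter word TATAAA was searched as well. The nearest GENCODE start lay 70 bases before the RefSeq start in Stab2, 20 bases before it in Clec4g and at it in Stab1. The marked Stab2 match, at -40 from the RefSeq start, thus lies inside the gene as GENCODE places it.
Stab1, chr14:30890599-30890848: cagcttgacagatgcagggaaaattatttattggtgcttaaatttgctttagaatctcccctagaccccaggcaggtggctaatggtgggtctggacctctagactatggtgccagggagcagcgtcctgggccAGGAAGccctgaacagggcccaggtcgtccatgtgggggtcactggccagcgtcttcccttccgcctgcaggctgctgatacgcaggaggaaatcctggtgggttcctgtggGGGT
Stab2, chr10:86843807-86844056: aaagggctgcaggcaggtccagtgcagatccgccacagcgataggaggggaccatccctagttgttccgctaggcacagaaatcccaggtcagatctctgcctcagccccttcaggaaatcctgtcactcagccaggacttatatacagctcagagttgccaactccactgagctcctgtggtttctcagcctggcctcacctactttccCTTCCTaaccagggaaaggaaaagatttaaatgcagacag
Clec4g, chr8:3770652-3770901: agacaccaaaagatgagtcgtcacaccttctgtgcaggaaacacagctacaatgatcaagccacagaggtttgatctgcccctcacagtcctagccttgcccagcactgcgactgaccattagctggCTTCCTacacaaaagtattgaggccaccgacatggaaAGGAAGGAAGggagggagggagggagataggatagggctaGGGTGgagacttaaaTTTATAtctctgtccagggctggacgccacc

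In the full windows, AGGAAG was found in 3 of the 5 genes (the stabilins and Clec4g) and in 35.4% of 32851 mouse windows of the same length. CACCC was found in all 5 and in 57.5% of windows. TATAAA was found in Clec4g alone and in 13.6% of windows. The word AGATAA, known from factors such as Gata4, was found in 0 of the 5 and in 11.2% of windows. The words did not overlap one another in the printed stretches, apart from overlapping AGGAAG copies in Clec4g. Such matches are descriptions of letters and not binding sites.

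Lyve1 encodes a hyaluronan receptor shared by sinusoids, lymphatic vessels and some macrophages. Lyve1 (ENSMUSG00000030787, chromosome 7, 110449814 to 110462446) had 66, 30 and 45 counts in siControl against 243, 30 and 299 in siAATF, or 52.9, 72.4 and 25.1 CPM against 8.38, 6.04 and 16.6. Every siControl library was above every siAATF library, with siControl replicate 3 the nearest to them. The mean went from 50.1 ± 23.8 (SD, n = 3) to 10.3 ± 5.53 (SD, n = 3), and the log2 fold change was -2.21 (standard error 0.49, adjusted p = 0.00433, edgeR).

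Fcgr2b, the inhibitory IgG receptor through which sinusoids clear small immune complexes, and which B cells and macrophages also carry, fell most of the 10. Fcgr2b (ENSMUSG00000026656, chromosome 1, 170786186 to 170804116) had 216, 66 and 187 counts in siControl against 1125, 44 and 203 in siAATF. In CPM it was 173, 159 and 104 in siControl and 38.8, 8.86 and 11.2 in siAATF. The siControl libraries were all higher, and siAATF replicate 1 stood above the other siAATF libraries. From 146 ± 36.5 (SD, n = 3) to 19.6 ± 16.6 (SD, n = 3), the log2 fold change was -2.87 (standard error 0.57, adjusted p = 0.00211, edgeR). Fcgr2b resembles other Fc receptor genes in sequence, so its counts are uncertain where reads mapped to several places and were discarded.

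All 3 falls kept an adjusted p under 0.05 in edgeR with each library left out in turn (at most 0.0189 for Stab1, 0.0246 for Lyve1 and 0.0109 for Fcgr2b). Without siAATF replicate 1 the log2 fold change of Fcgr2b was -3.81, and after thinning to the smallest mouse total that of Lyve1 was -3.75. With human and mouse counts together as library size they turned to log2 fold changes of 2.22, 2.16 and 1.60, and with pan-endothelial counts as library size they were -0.33, 0.05 and -1.23 and did not pass (adjusted p = 0.724, 0.960 and 0.168, edgeR).

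Clec4g encodes LSECtin, a C-type lectin of the sinusoidal surface, and showed the largest rise. Clec4g (ENSMUSG00000074491, chromosome 8, 3757064 to 3770651) had 8, 0 and 0 counts in siControl against 1523, 45 and 324 in siAATF. Its CPM was 6.42, 0 and 0 in siControl and 52.5, 9.07 and 17.95 in siAATF. The siControl counts all came from replicate 1, and the lowest siAATF library was only just above it. The mean went from 2.14 ± 3.70 (SD, n = 3) to 26.5 ± 22.9 (SD, n = 3), and the log2 fold change was 3.48 (standard error 0.97, adjusted p = 0.0159, edgeR). The call was lost without siControl replicate 2 (3.22, adjusted p = 0.0602, edgeR) or siControl replicate 3 (2.60, 0.0824) and kept without siAATF replicate 1 (2.56, 0.0452), and without siControl replicate 1, which left 0 control counts, the fitted value of 11.18 was no bound. It was also lost with total mouse counts as library size (1.89, adjusted p = 0.121, edgeR) and with mouse counts without mitochondrial genes (2.30, 0.0727).

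Dnase1l3, a secreted DNase that digests chromatin DNA in plasma, rose with it. Dnase1l3 (ENSMUSG00000025279, chromosome 14, 14475200 to 14505240, plus strand) had 10, 0 and 6 counts in siControl against 1755, 69 and 240 in siAATF, or 8.02, 0 and 3.34 CPM against 60.5, 13.9 and 13.3. The groups did not overlap, and replicate 1 was the highest library of each group. The mean went from 3.79 ± 4.03 (SD, n = 3) to 29.2 ± 27.1 (SD, n = 3), and the log2 fold change was 2.705 (standard error 0.77, adjusted p = 0.0171, edgeR). The call was lost without siControl replicate 2 (adjusted p = 0.0585, edgeR), siControl replicate 3 (0.101) or siAATF replicate 1, without which the log2 fold change was 1.66 (0.0626). It was also lost with total mouse counts as library size (1.12, adjusted p = 0.269, edgeR), with mouse counts without mitochondrial genes (1.54, 0.134) and in limma-voom (2.56, 0.0626), and without siControl replicate 1 the value was 3.54 with the call kept.

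Oit3, which encodes a secreted protein with a zona pellucida domain, did not differ beyond its spread. Oit3 (ENSMUSG00000009654, chromosome 10, 59258780 to 59277600) had 19, 1 and 5 counts in siControl against 482, 15 and 61 in siAATF, or 15.2, 2.41 and 2.79 CPM against 16.6, 3.02 and 3.38. Replicate 1 stood far above replicates 2 and 3 in both groups, and the groups overlapped. The mean went from 6.81 ± 7.30 (SD, n = 3) to 7.67 ± 7.75 (SD, n = 3), and the log2 fold change was 0.10 (standard error 0.81, adjusted p = 0.940, edgeR).

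Gpr182 encodes an endothelial receptor that binds and removes chemokines. Gpr182 (ENSMUSG00000058396, chromosome 10, 127583145 to 127587601) had 26, 6 and 9 counts in siControl against 869, 46 and 147 in siAATF, or 20.9, 14.5 and 5.01 CPM against 30.0, 9.27 and 8.14. The groups overlapped, with siAATF replicates 2 and 3 between the siControl libraries. From 13.4 ± 7.97 (SD, n = 3) to 15.8 ± 12.3 (SD, n = 3), the log2 fold change was 0.30 (standard error 0.62, adjusted p = 0.747, edgeR). Zbtb39 overlaps Gpr182 on the other strand and had 20 counts in siControl against 406 in siAATF, and without a stated strand setting reads of an overlapping pair cannot be told apart. Nt5dc2 overlaps Stab1 in the same way, with 67 and 241 counts.

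Wnt2 and Rspo3 are the signals among the 10. Wnt2 is a ligand of Frizzled receptors, and R-spondin 3 strengthens Wnt signaling by keeping those receptors on the cell surface. Rspo3 (ENSMUSG00000019880, chromosome 10, 29328414 to 29411863) had 7, 4 and 11 counts in siControl against 676, 143 and 179 in siAATF, or 5.61, 9.65 and 6.13 CPM against 23.3, 28.8 and 9.92. Every siAATF library was higher, with siAATF replicate 3 barely above siControl replicate 2. The mean went from 7.13 ± 2.20 (SD, n = 3) to 20.7 ± 9.72 (SD, n = 3), and the log2 fold change was 1.63 (standard error 0.51, adjusted p = 0.0285, edgeR). The call was lost in edgeR without siControl replicate 1 (adjusted p = 0.112), siControl replicate 3 (0.140), siAATF replicate 1 (0.0515) or siAATF replicate 2 (0.0563), and with total mouse counts as library size the log2 fold change turned to -0.20. It was also lost with upper quartile normalization (1.38, adjusted p = 0.0753, edgeR), with mouse counts without mitochondrial genes (0.44, 0.584), after thinning (0.94, 0.473) and in limma-voom (1.42, 0.106).

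Wnt2 (ENSMUSG00000010797, chromosome 6, 17988939 to 18030584) had 1, 0 and 2 counts in siControl against 222, 10 and 22 in siAATF, or 0.802, 0 and 1.11 CPM against 7.65, 2.01 and 1.22. All siAATF libraries were higher, but siAATF replicate 3 lay just above siControl replicate 3. Over the summed libraries the normalized rate was 5.62 times higher in siAATF (95% counting interval 1.90 to 27.5). The log2 fold change of 2.14 did not pass (standard error 1.07, adjusted p = 0.151, edgeR). It passed without siAATF replicate 3 (2.63, adjusted p = 0.0463, edgeR), with pan-endothelial counts as library size (3.63, adjusted p = 0.0139) and with human and mouse counts (6.32, adjusted p = 7.20e-09), and was 0.53 with total mouse counts (adjusted p = 0.726). Of the 254 siAATF counts of Wnt2, 222 came from replicate 1, without which the log2 fold change was 0.99 (adjusted p = 0.565, edgeR) and the summed rate ratio 1.60.

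The makeup of the sinusoidal counts within each library does not depend on scaling between libraries either. The 10 genes held 594, 155 and 519 counts in siControl against 9500, 785 and 2311 in siAATF. Stab1, Lyve1 and Fcgr2b together made up 85.9% ± 3.59 (SD, n = 3) of them in siControl and 31.2% ± 3.19 (SD, n = 3) in siAATF. Clec4g, Dnase1l3 and Rspo3 made up 3.36% ± 0.817 (SD, n = 3) and 35.5% ± 5.31 (SD, n = 3). These trios were formed from the calls, so the contrast between them is a description.

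The shares sum to 100% in each library, so that some must rise where others fall. Fcgr2b went from 38.3% ± 3.69 (SD, n = 3) to 8.74% ± 3.12 (SD, n = 3) and Stab1 from 34.5% ± 7.45 to 16.0% ± 5.25, while Stab2 went from 5.62% ± 1.58 to 21.5% ± 6.68 and Gpr182 from 3.33% ± 1.40 to 7.12% ± 1.77, all without overlap between groups. The share of Lyve1, 13.0% ± 5.60 and 6.44% ± 5.66, overlapped between the groups, and so did that of Oit3, 1.60% ± 1.39 and 3.21% ± 1.66.

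**Figure D2:**
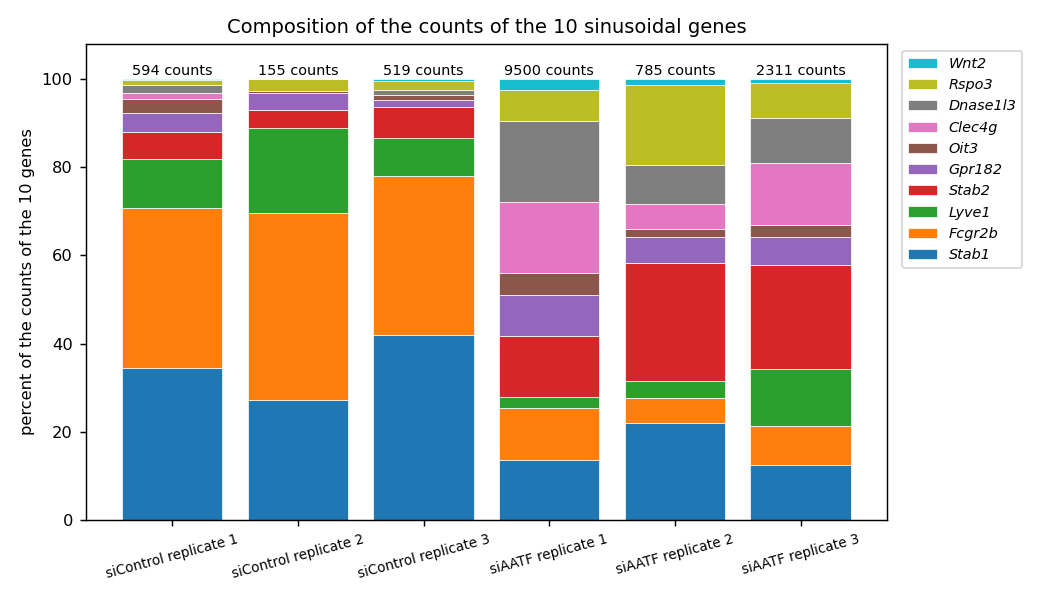
Percent of the summed counts of the 10 sinusoidal genes that each gene took in each of the 6 libraries (bars sum to 100%, with the summed count above each bar). Stab1, Fcgr2b and Lyve1 fill most of each siControl bar, and Stab2, Clec4g, Dnase1l3 and Rspo3 widen in each siAATF bar.

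Levels of different genes were compared per kilobase of gene length. In siControl, Fcgr2b was highest at 38.2 ± 9.58 (SD, n = 3) normalized CPM per kilobase, followed by Lyve1 (17.3 ± 8.22) and Stab1 (16.1 ± 4.03), whose ranges overlapped. The other 7 genes had mean levels of 0.283 (Wnt2) to 3.40 (Gpr182), and each of these overlapped its neighbor in the order. In siAATF, Clec4g was highest at 10.9 ± 9.44 (SD, n = 3) normalized CPM per kilobase, followed by Rspo3 (6.70 ± 3.15) and Dnase1l3 (6.16 ± 5.70). Wnt2 was again lowest, at 1.61 ± 1.56, and no neighbors in that order differed beyond their ranges.

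As a sum, the 10 genes took 713 ± 139 (SD, n = 3) CPM of mouse counts without TMM in siControl and 119 ± 90.6 (SD, n = 3) in siAATF. Relative to the human and mouse gene counts together, they took 10.5 ± 5.36 (SD, n = 3) CPM and 117 ± 90.0 (SD, n = 3). The groups did not overlap on either scale, but the order turned between them. Per count of 15 pan-endothelial genes in the same library, the sum was 0.649, 0.305 and 0.281 in siControl and 0.718, 0.576 and 0.921 in siAATF, and the groups overlapped (0.411 ± 0.206 and 0.738 ± 0.173, SD, n = 3). On the log2 scale this ratio differed by 0.93 between the groups, but by 2.67 with means of log2 values in place of sums. On the scale of all gene counts, 9 of the 10 genes were higher in every siAATF library than in every siControl library, beside 83.9% of all mouse genes, and Fcgr2b was the exception, at 2.41 to 5.92 in siControl and 3.64 to 26.2 in siAATF.

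The zero point of the fold changes therefore depended on the scaling. A change of library size moves all genes nearly alike, so values relative to the median of all mouse genes stay close by construction and are given as a common scale. The median log2 fold change of all mouse genes was 0.50 with TMM, -1.30 with total mouse counts, 2.52 with pan-endothelial counts and 4.66 with human and mouse counts as library size. Relative to that median, over 7 scalings, Fcgr2b was at -3.75 to -3.06, Stab1 at -2.84 to -2.44 and Lyve1 at -2.83 to -2.47. On the same scale Clec4g was at 2.48 to 3.19, Dnase1l3 at 1.70 to 2.42, Wnt2 at 1.11 to 1.83, Rspo3 at 0.90 to 1.21 and Stab2 at 0.21 to 0.41. Oit3 was at -1.02 to -0.17, and Gpr182 at -0.69 to 0.02. All 7 scalings used the same filter on counts, and these ranges hold for that filter alone. With TMM the median was 1.16 without a filter, 0.11 with at least 10 counts in every library and -0.315 after thinning to the smallest mouse total.

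With pan-endothelial counts as library size, 5 of the 10 genes were called higher and 0 lower (6 and 0 by unadjusted p in edgeR), beside 51.4% and 3.39% of all mouse genes. Clec4g, Dnase1l3 and Rspo3 were joined by Stab2 at 2.72 (standard error 0.85, adjusted p = 0.00466, edgeR), and by Wnt2 at 3.63 (standard error 1.30, adjusted p = 0.0139, edgeR).

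**Figure D3:**
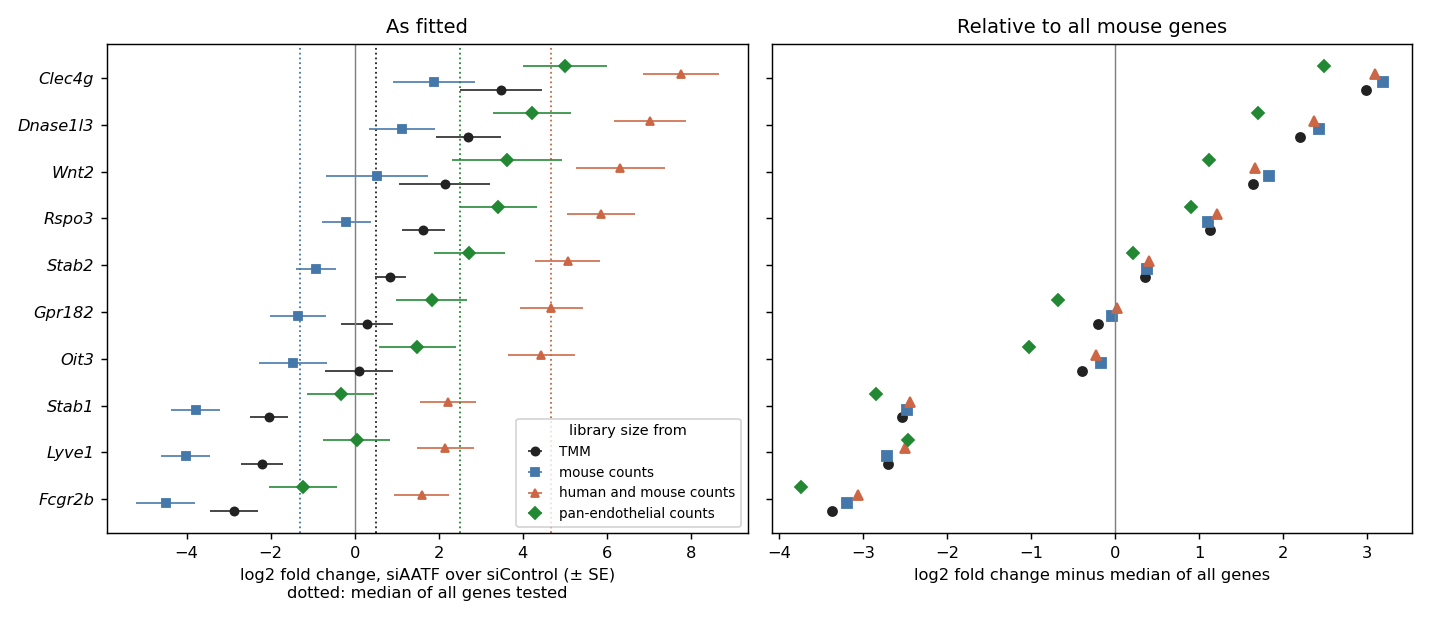
Fitted log2 fold change of each sinusoidal gene, siAATF over siControl (horizontal axis, left panel, bars ± SE), under 4 choices of library size, and the same minus the median of all mouse genes tested under that choice (right panel). On the left the markers of a gene spread over several log2 units and Stab1, Lyve1 and Fcgr2b change sign with human and mouse counts as library size, and on the right, where the common shift of all genes is taken off, they lie closer, with Fcgr2b, Lyve1 and Stab1 at -3.75 to -2.44 under each.

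Genes of other endothelial lists were read from the same fit. The counts of each list stand beside the share of all mouse genes called under the same library size, which was 87.2% higher and 0.66% lower with human and mouse counts, 51.4% and 3.39% with pan-endothelial counts, and 4.15% and 40.3% with total mouse counts. Of 11 other sinusoidal genes, 1 was higher, 2 were lower and 8 did not pass, with a median log2 fold change of 0.37 beside 0.50 for all genes. With pan-endothelial counts as library size 5 were higher and 0 lower, with human and mouse counts 10 and 0, and with total mouse counts 0 and 6. Ehd3, a membrane trafficking gene, rose by 1.58 on the log2 scale (adjusted p = 0.0300, edgeR). That call was lost in limma-voom, where 0 of the list were higher and 3 lower. The endocytic adaptor Dab2 (-3.10, adjusted p = 0.000350, edgeR) and the VEGF-C receptor Flt4 (-1.61, adjusted p = 0.00994, edgeR) fell. Of 6 pericentral endothelial genes, which include Wnt2 and Rspo3, 1 was higher, namely Rspo3 itself, and 2 were lower, Cdh13 (-2.51) and Thbd (-1.99). With pan-endothelial counts as library size 3 were higher (Rspo3, Wnt2 and Wnt9b) and 0 lower. These counts were 6 and 0 with human and mouse counts and 0 and 3 with total mouse counts. Of 5 periportal genes, 0 were higher and 4 lower, with a median of -3.83, 0 and 3 with pan-endothelial counts as library size, 2 and 0 with human and mouse counts, and 0 and 4 with total mouse counts. Msr1, a scavenger receptor that macrophages also carry, and the arterial ligand Efnb2 were lowest at -4.02 and -4.00.

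Genes shared by all endothelium were mostly lower after TMM. Of 15 pan-endothelial genes, 0 were higher and 11 lower in edgeR as in DESeq2 and limma-voom (0 higher also by unadjusted p), with a median of -2.35. The cadherin Cdh5 was at 100 ± 20.2 (SD, n = 3) CPM in siControl, beside 8.16 ± 5.55 (SD, n = 3) in siAATF, and its log2 fold change was -3.58 (adjusted p = 0.000246, edgeR). Pecam1 had 94, 47 and 213 counts in siControl against 552, 19 and 100 in siAATF, a log2 fold change of -3.40 (adjusted p = 0.000811, edgeR), and Robo4 was at -3.43. With human and mouse counts as library size 10 of the 15 were higher and 0 lower, beside 87.2% and 0.66% of all genes, with the list's own counts as library size 1 was higher and 1 lower, and with total mouse counts 0 and 13.

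The 10 markers of continuous endothelium were mostly lower as well. Among them 7 fell, 0 rose and 3 did not pass, with a median of -2.999. With pan-endothelial counts as library size 5 were lower and 1 higher, with human and mouse counts 0 were lower and 5 higher, and with total mouse counts 9 and 0. The apelin receptor Aplnr (4, 0 and 16 counts in siControl, 2, 0 and 0 in siAATF) and the sialomucin Cd34 (86, 37 and 190 against 81, 6 and 34) were lowest at -6.61 and -5.41. Ackr1, a venular chemokine receptor, had 0 counts in siControl and 103 over the siAATF libraries, of which 87 came from replicate 1. This was at least 2.28-fold higher over the group but did not pass (adjusted p = 0.0992, edgeR).

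Counts per Pecam1 count in the same library put the sinusoidal genes beside a single endothelial gene, which differed more than the median of the 15 pan-endothelial genes. Stab2 per Pecam1 was 0.383, 0.128 and 0.169 in siControl and 2.40, 11.1 and 5.47 in siAATF, and Rspo3 per Pecam1 was 0.0745, 0.0851 and 0.0516 against 1.22, 7.53 and 1.79. Neither ratio overlapped between the groups, but Pecam1 was at -3.40 beside a median log2 fold change of 0.50 for all mouse genes. A mouse gene at that median therefore also rose per Pecam1 count. The share of all genes without overlap in this ratio was not computed. Lyve1 per Pecam1, at 0.702, 0.638 and 0.211 against 0.440, 1.58 and 2.99, did overlap.

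**Figure D4:**
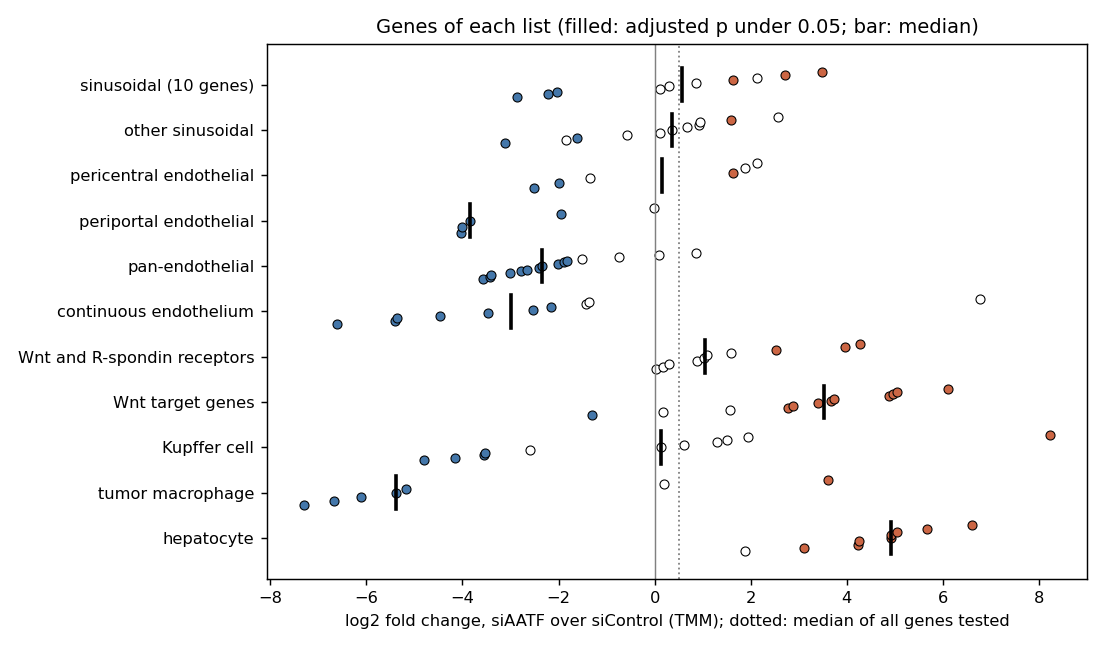
Fitted log2 fold change, siAATF over siControl with TMM (horizontal axis), of each gene of 11 lists, filled red (higher) or blue (lower) where the adjusted p was under 0.05, with a bar at each list's median and a dotted line at the median of all genes, 0.50. The pan-endothelial, periportal and continuous lists lie mostly to the left and the Wnt target and hepatocyte lists to the right, while the 10 sinusoidal genes lie on both sides. Values of genes with 0 siControl counts (Ackr1, Cd163) are fitted values and no bounds.

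The ligands, receptors and targets of the Wnt pathway were listed around Wnt2 and Rspo3. Of 10 other Wnt and R-spondin genes, 8 could be tested, and 1 was higher and 2 were lower. These counts were 6 and 0 with human and mouse counts as library size, 4 and 0 with pan-endothelial counts and 0 and 4 with total mouse counts. Rspo2 and Rspo4 had 0 counts in every library. Wnt5b rose from 2, 0 and 0 counts to 252, 42 and 211, with a log2 fold change of 4.001 (adjusted p = 0.00418, edgeR), and Wnt11 (-4.91) and Wnt4 (-1.82) fell. Wnt9b, the other pericentral endothelial Wnt, had 0, 0 and 2 counts in siControl against 106, 8 and 13 in siAATF, a normalized rate ratio of 4.22 (95% counting interval 1.14 to 35.2). Of the 127 siAATF counts of Wnt9b, 106 came from replicate 1, and the ratio without that library was not computed. The groups overlapped and Wnt9b did not pass (log2 fold change 1.88, standard error 1.24, adjusted p = 0.267, edgeR).

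Of 10 receptors and regulators of these ligands, 3 were higher and 0 lower, with a median of 1.05. With total mouse counts as library size 1 was higher and 3 lower, and 10 were higher and 0 lower both with human and mouse counts and with pan-endothelial counts. Lgr4 and Lgr5, receptors of R-spondins, were at 4.27 (adjusted p = 0.000226, edgeR) and 3.97 (adjusted p = 0.00562, edgeR), with 4, 0 and 3 against 1125, 117 and 958 counts and 0, 1 and 1 against 198, 77 and 126. Of 12 targets of Wnt signaling in liver, 9 were higher and 1 lower, with a median of 3.53. With total mouse counts as library size 6 were higher and 1 lower, with human and mouse counts 12 and 0, and with pan-endothelial counts 10 and 0. The cytochrome genes Cyp1a2 (6.10) and Cyp2e1 (5.03) rose most and Nkd1, a feedback inhibitor, fell by 1.31 on the log2 scale. Several of these targets are hepatocyte genes, and 8 of 9 hepatocyte markers were also higher (7 to 9 under the other library sizes), with a median of 4.91 and the largest values at Serpina1c (6.60), a secreted protease inhibitor, and Cps1 (5.67), an enzyme of the urea cycle. What part of the difference in the targets goes with hepatocyte RNA was not tested.

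Related receptors and enzymes showed both directions after TMM. Of 12 scavenger and Fc receptor genes, 0 were higher and 5 lower, with a median of -0.53, and the activating Fc receptors Fcgr3 (-5.01) and Fcgr1 (-4.88) were lowest. With human and mouse counts as library size 7 of these receptor genes were higher and 0 lower, with pan-endothelial counts 5 and 5, and with total mouse counts 0 and 8. Fcgr2b counts per count of Fcer1g, the signaling chain of activating Fc receptors, were 0.632, 0.767 and 0.599 in siControl against 6.82, 2.20 and 0.923 in siAATF, without overlap. Of 9 hyaluronan genes, 8 could be tested. Hyal1 and Hyal2, which degrade hyaluronan, were higher at 2.71 and 1.40, and the synthase Has2 (-8.64), the receptor Cd44 (-4.72) and a further gene were lower. With human and mouse counts as library size 5 hyaluronan genes were higher and 1 lower, with pan-endothelial counts 2 and 2, and with total mouse counts 0 and 5.

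Of 6 other DNase genes, Dnase2b was higher (3.63) and Dnase1l1 lower (-2.04). Of 4 atypical chemokine receptors, a class with which Gpr182 shares chemokine binding, Ackr3 (-3.80) and Ackr2 (-2.71) were lower, and Ackr1 and Ackr4 had 0 siControl counts. With human and mouse counts as library size 6 DNase genes and 2 atypical receptors were higher and 0 lower. With pan-endothelial counts 2 DNase genes were higher and 0 lower and 2 atypical receptors higher and 1 lower, and with total mouse counts 3 and 2 were lower and 0 higher.

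Markers of other cell types that carry some of the 10 genes were read from the same fit. Of 11 Kupffer cell markers, 1 was higher, 4 were lower and 6 did not pass, with a median of 0.14. With pan-endothelial counts as library size 6 were higher and 2 lower, with human and mouse counts 6 and 0, and with total mouse counts 0 and 6. Their summed level was 559.8 to 2493 CPM in siControl and 165 to 253 in siAATF. In siControl most of it came from the complement genes C1qa and C1qb, which were at 639 ± 444 and 532 ± 405 there and at 55.2 ± 8.75 and 30.1 ± 4.77 in siAATF (SD, n = 3). Clec4f, a lectin of resident Kupffer cells, was at 19.96 ± 21.6 in siControl and 61.3 ± 13.8 in siAATF and did not pass (adjusted p = 0.0705, edgeR), nor did Timd4 (0.824 ± 0.836 and 4.19 ± 1.53) or Vsig4 (6.57 ± 3.34 and 10.1 ± 4.99). Adgre1, which encodes F4/80, was at -4.80 and C1qb at -4.15, and Cd163 had 0 counts in siControl against 60, 21 and 106 in siAATF, at least 4.14-fold higher over the group. Of 7 markers of tumor macrophages, 1 was higher and 5 were lower, with a median of -5.39. Scaled by human and mouse counts 2 were higher and 3 lower, with pan-endothelial counts 2 and 5, and with total mouse counts 1 and 6. Their summed level was 2306 to 4068 CPM in siControl and 1188 to 3501 in siAATF, where most of it came from Arg1 and Fn1, genes that hepatocytes also express. Without these the other 5 markers summed to 1474 to 3082 CPM in siControl and 40.7 to 52.5 in siAATF. Gpnmb (-7.29) and Trem2 (-6.67) were lowest, and Arg1, also an enzyme of hepatocytes, was higher (3.61). The part of macrophages in the lower Stab1, Lyve1 and Fcgr2b was not tested. Stab1 counts per count of the macrophage receptor Csf1r were 0.748, 0.792 and 0.653 in siControl against 2.76, 4.33 and 0.743 in siAATF, and the groups overlapped.

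Of 5 B cell markers, 0 passed in edgeR (0 also by unadjusted p), 0 in DESeq2 and 1, lower, in limma-voom, while 5 were higher with human and mouse counts as library size, 1 higher with pan-endothelial counts and 2 lower with total mouse counts. Their summed level was 7.24 to 11.1 CPM in siControl and 3.83 to 7.26 in siAATF. Of 5 lymphatic markers, 2 were lower, Pdpn (-4.09) and Flt4, and Prox1, which hepatocytes also express, was higher (3.38). Ccl21a, a lymphatic chemokine, had 0 counts in siControl and 420, 9 and 9 in siAATF, at least 9.70-fold higher over the group, but did not pass (adjusted p = 0.0539, edgeR), and without siAATF replicate 1 its rate of 0.782 CPM was below the siControl limit of 0.868 CPM. Scaled by human and mouse counts 4 lymphatic markers were higher and 0 lower, with pan-endothelial counts 3 and 0, and with total mouse counts 1 and 2. Of 8 stellate cell markers, Colec11 was higher (1.68) and Des lower (-3.001). The Colec11 call was lost in limma-voom and with total mouse counts, where 0 of the list were higher. With human and mouse counts as library size 8 were higher, with pan-endothelial counts 4 were higher, and with total mouse counts 5 were lower.

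Some genes followed the mean of the 10 genes across libraries. That mean, in log2 of CPM plus 0.5, was 4.27, 2.99 and 3.12 in siControl and 4.77, 3.49 and 3.39 in siAATF, so that replicate 1 stood highest in both groups. Among 11613 genes with a mean of at least 20 counts, 24 had a Pearson r above 0.9 with it over the 6 libraries. The highest were Rbbp4 (0.991), Gata4 (0.976), Ppp1r13b (0.971), Cib3 (0.970) and Itpk1 (0.966). Gata4, a transcription factor of sinusoidal endothelium and other cells, was also in the list of other sinusoidal genes and had a log2 fold change of 0.93. The 6 points share library, depth and hepatocyte content, and these correlations are descriptions.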

How the data were processed

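RNA of 6 mouse liver samples with human tumors was sequenced from SMART-Seq libraries, which are amplified by PCR. The authors trimmed reads with Cutadapt, aligned them with STAR (2.7.11 in the submitters' processing notes) to joined human and mouse genomes (GRCh38 and GRCm39), discarded multi-mapping reads and reads of both species, and counted genes with featureCounts (2.0.1). The deposited values are raw counts without normalization, with the gene length in another deposited column. Genes shared closely by both species may lose reads. The strand setting is not given in the sources used here. Columns of other samples numbered 0.

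The members and lists were chosen with earlier results of these data known. Identifiers were named from GENCODE mouse release 39 (56323 of 56884). edgeR 4.0.16 (limma 3.58.1, R 4.3.3) tested siAATF against siControl with TMM and group as the only term, over genes with at least 10 counts in all; DESeq2 1.42.0, the authors' program, was an alternative. Tests were checked on simulated data. Named genes are the 10 members, in each other list the 2 highest and 2 lowest fitted log2 fold changes among genes passing, genes without counts, Pecam1, Cdh5 and Alb, and the 5 genes most like the members' mean. Wnt9b, Fcer1g, Csf1r, Fn1, Glul, Oat, Zbtb39, Nt5dc2, C1qa, Clec4f, Timd4 and Vsig4 were named after their values were seen. Bounds use 3 counts over the group, and intervals cover counting error only. Replicate numbers were checked for pairing by correlating deviations from group means. Plots were drawn with matplotlib 3.10.9 in Python 3.11.15.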

Additional observations from a re-analysis of the deposited data

How the results depend on the processing

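The calls among the 10 genes depended most on the choice of library size, and apart from what each alternative changed by construction, the cause was not tested. The 3 genes called higher became 0 with total mouse counts, 10 with human and mouse counts, 5 with pan-endothelial counts, 0 with mouse counts without mitochondrial genes (added after seeing the data), 1 after thinning to the smallest mouse total, where Clec4g and Wnt2 could not be tested, and 1 with limma-voom. Where each library needed at least 10 counts it was 0 because the filter left only Stab1, Lyve1 and Fcgr2b to test, so no call was tested and lost. The 3 called lower became 0 with human and mouse counts and 0 with pan-endothelial counts. All mouse genes called higher and lower were 3169 and 2593, and 748 and 7267 with total mouse counts, 15711 and 119 with human and mouse counts, 9259 and 610 with pan-endothelial counts, 1103 and 5539 without mitochondrial genes, 872 and 873 with at least 10 counts in every library and 1309 and 1816 after thinning. The 11 pan-endothelial genes called lower became 0 with human and mouse counts and 1 with pan-endothelial counts, and the 9 Wnt targets called higher became 2 with at least 10 counts in every library, where only Glul and Oat were left to test.

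Directions reversed for Stab1 (2.22), Lyve1 (2.16) and Fcgr2b (1.60) with human and mouse counts, for Lyve1 (0.047) with pan-endothelial counts, and with total mouse counts for Stab2 (-0.92), Gpr182 (-1.34), Oit3 (-1.47) and Rspo3 (-0.20). Without mitochondrial genes Stab2 (-0.36), Gpr182 (-0.88) and Oit3 (-1.04) reversed. Gpr182 was at -0.89 after thinning, and Oit3 at -0.16 with upper quartile normalization and -0.028 with filterByExpr. Of all single-gene fits under the alternatives, 134 kept direction and side of the threshold, 20 lost the call, 7 gained one and 19 reversed.

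With each library left out, 0 to 4 of the 10 genes were called higher (0 without siControl replicate 3) and 3 were called lower in every fit. Pan-endothelial genes called lower ranged from 9 to 13, Wnt targets higher from 8 to 10, and all genes from 1611 to 3576 higher and 1722 to 2503 lower, the lowest of both without siControl replicate 3. Gpr182 ranged from -0.53 without siAATF replicate 1 to 0.95 without siControl replicate 1, with -0.21 without siControl replicate 3. Oit3 ranged from -1.11 without siAATF replicate 1 to 1.53 without siControl replicate 1, with -0.15 without siControl replicate 2 and -0.40 without siControl replicate 3.

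The log2 ratio of summed sinusoidal to pan-endothelial counts differed by 0.93, siAATF minus siControl (0.70 to 1.31 with a library left out). This difference was 2.67 from means of log2 values and 2.78 with Pecam1 and Cdh5 alone as reference. The sinusoidal share of mouse counts differed by -2.83 on the log2 scale (-3.41 to -2.53), or -1.17 from means of log2 values. The sinusoidal share of all gene counts differed by 3.35 (2.76 to 3.73).

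Same-numbered replicates deviated from their group means with correlations of 0.130, 0.185 and -0.0214, so the numbers are not taken to pair the samples, and the replicate block gave 3854 higher and 2912 lower genes, with 3 of the 10 higher and 3 lower. Over the siControl libraries, Wnt2 had 3 counts, Clec4g 8, Dnase1l3 16, Rspo3 22 and Oit3 25.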
